A study of Cavia porcellus with 12 samples.

Results

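The enzymes described here load, interconvert and release one-carbon units on folate, or make the serine that supplies most of those units. They are the mitochondrial folate enzymes *MTHFD2*, *MTHFD2L*, *MTHFD1L* and *SHMT2*, the cytosolic folate enzymes *MTHFD1* and *SHMT1*, and the serine synthesis enzymes *PHGDH*, *PSAT1* and *PSPH*. A gene was taken up where the authors' table of log2 values carried its human symbol. This held for 8 of the 9 genes, out of 11896 symbols in all, and *MTHFD2L* was not analysed here. Their expression was compared between 6 livers of guinea pigs with non-alcoholic steatohepatitis (NASH) and 6 livers of control animals. All 12 were female guinea pigs of the Dunkin Hartley strain, 10 weeks old on arrival, and the labels name no genetic change or drug. Controls (animals 5, 10, 31, 32, 45 and 56) ate chow for 25 weeks, and NASH animals (2, 9, 11, 20, 41 and 65) ate a high-fat diet for the same time. The NASH animals were selected for bridging fibrosis, so milder disease is not represented, and the livers were not perfused, so the samples contain blood.

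Serine hydroxymethyltransferase splits serine into glycine and a one-carbon unit bound to tetrahydrofolate, in mitochondria through SHMT2 and in the cytosol through SHMT1. In mitochondria, MTHFD2 (or its relative MTHFD2L) oxidises this unit to formyl-tetrahydrofolate and MTHFD1L releases it as formate, which leaves for the cytosol. The cytosolic trifunctional enzyme MTHFD1 catalyses the corresponding steps there, so that formate can be used for purines, thymidylate and methionine. Serine itself is made from the glycolytic intermediate 3-phosphoglycerate by PHGDH, PSAT1 and PSPH, in that order. The adult liver is rich in the cytosolic enzymes, whereas MTHFD2 is known as an enzyme of embryonic, proliferating and tumour cells that is scarce in most resting adult tissue.

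The controls were sequenced to 16980274 to 28636467 counts per animal and the NASH animals to 23704607 to 33091460. Values are given as CPM, the counts scaled to a common library size, with TMM factors, which were 0.804 to 0.875 in controls and 1.116 to 1.241 in NASH, and 3 counts corresponded to at most 0.214 CPM in controls and 0.105 CPM in NASH. The factors differed between the groups without overlap, so differences of the 8 genes, and those of other named genes whose call changed, are also given for scaling by library size alone. Group differences were tested with the quasi-likelihood test of edgeR over all 11896 symbols at a Benjamini-Hochberg adjusted p-value of 0.05. Each animal was a sample of its own. Transcript lengths were not used, so levels are compared between animals and not between genes. Each of the 8 genes was the only symbol on its row of the count table, and reads mapping to several places had been left out, which keeps reads shared by paralogues out of these values.

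The pathway split into a small group that was higher in NASH and a larger group that was lower. *MTHFD2* and *MTHFD1L*, both mitochondrial, rose, whereas *SHMT2*, *MTHFD1*, *SHMT1*, *PHGDH*, *PSAT1* and *PSPH* fell; the call of *SHMT2*, *MTHFD1*, *PHGDH*, *PSAT1* and *PSPH* was lost, without a change of sign, when libraries were scaled by their size alone. In total 8 of 8 genes were called, *MTHFD2* with a direction fixed by the filter on low counts, against 53.9% of all symbols tested. Of these 2 were higher, against 27.9% of all symbols, and 6 were lower, against 26.0%. More than every other symbol was called in this comparison, so being called did not by itself set these genes apart. The median log2 fold change of the 8 genes was -0.68, compared to 0.0 over all symbols. CPM values of the groups did not overlap for 7 of the 8 genes, against 33.7% of all symbols, with NASH above in 2 (18.4% of all symbols) and below in 5 (15.3%). In bulk liver, fewer cells of a type and less RNA per cell cannot be told apart.

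**Figure D1:**
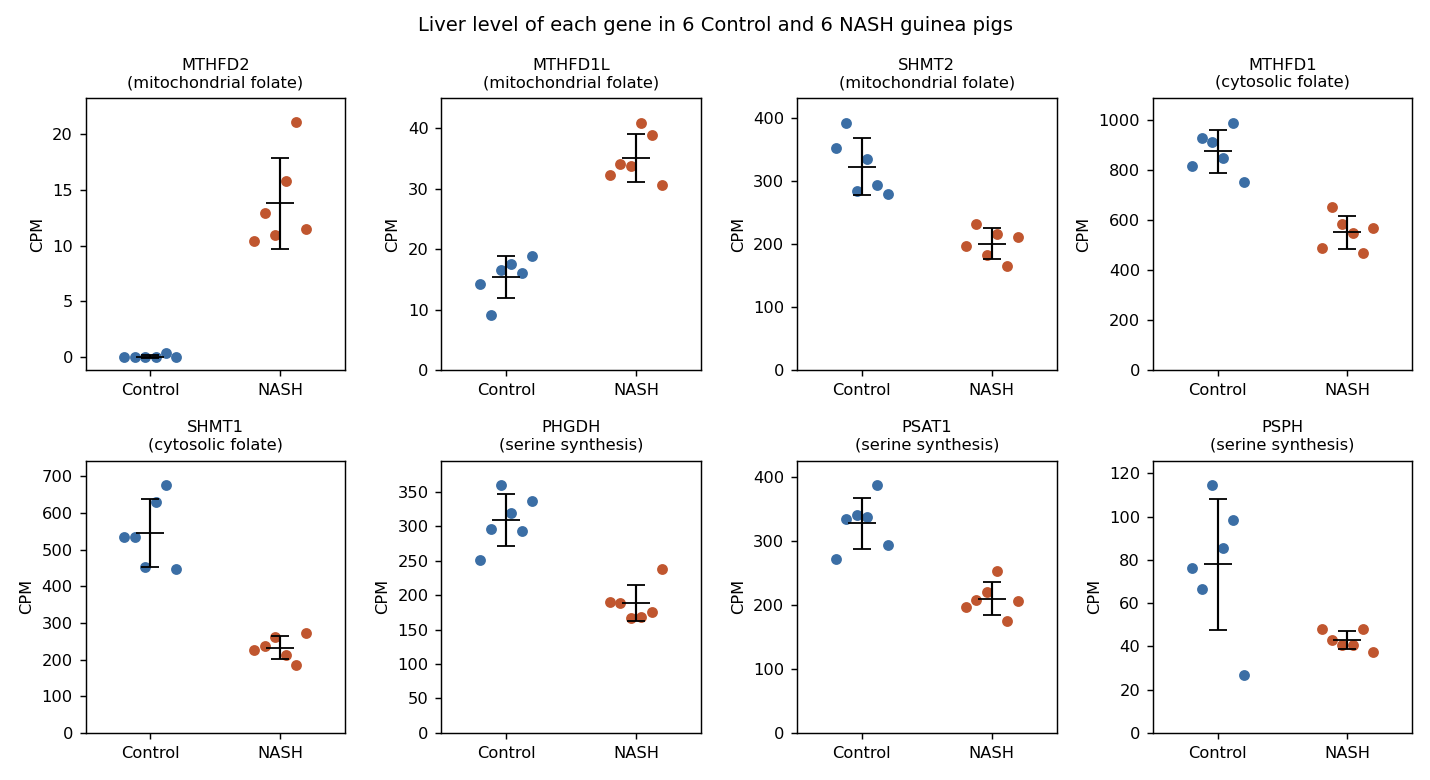
Expression of the 8 genes in each animal, in CPM on a linear axis with its own range per gene, with each point 1 animal and horizontal bars at the group means with the SD over 6 animals. The 6 NASH animals lie above all controls for MTHFD2 and MTHFD1L and below all controls for the other genes except PSPH, where Control 56, at 26.9 CPM, lies below every NASH animal.

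*MTHFD2*, the mitochondrial methylene-tetrahydrofolate dehydrogenase and cyclohydrolase, was close to absent in control livers and present in every NASH liver. It had 0 counts in 5 of the 6 controls and 9 counts (0.37 CPM) in Control 45. In NASH it had 307 counts in NASH 2, 442 in NASH 9, 334 in NASH 11, 505 in NASH 20, 827 in NASH 41 and 327 in NASH 65. On the CPM scale these NASH livers ran from 10.4 over a median of 12.2 to 21.1, with a mean of 13.8 ± 4.07 (SD, n = 6). The lowest NASH value was therefore far above the highest control value, and NASH 41 stood highest within its group. Against the 5 controls at 0, taken at the highest limit their counts allow (0.214 CPM), the NASH mean was at least 64.2-fold higher. The fitted log2 fold change over all 12 animals was 7.41 (SE 0.56). A gene needed at least 200 counts over all animals to be in the authors' table, and *MTHFD2* met this through its NASH counts alone, so its direction was fixed by that filter and its call is a description. This fitted value rests on the 9 counts of Control 45, since without that animal all controls are at 0 and the fit gives 11.48, which depends on the prior count and is no bound. Without any other single animal it was 7.13 to 7.47. *MTHFD2* is among the genes that the study itself listed for these animals, so its rise here is not independent evidence of that choice. In the deposited log2 values, which draw low counts towards the mean of the gene, the groups differed by 2.07.

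*MTHFD1L*, the mitochondrial formyl-tetrahydrofolate synthetase that releases formate, was the other gene that rose. Control livers ran from 9.08 over a median of 16.3 to 18.9 CPM, and NASH livers from 30.6 over 34.0 to 40.96 CPM. All 6 NASH animals were above all 6 controls, and Control 10 was the lowest of the controls. The means were 15.4 ± 3.47 CPM in controls and 35.1 ± 3.99 CPM in NASH (SD, n = 6 each), a 2.28-fold difference. The log2 fold change was 1.19 (SE 0.15, adjusted p = 2.84e-05), it stayed between 1.07 and 1.25 when each animal was left out in turn, and it was 1.66 with library size alone. Unlike *MTHFD2*, *MTHFD1L* was well counted in controls, with 177 to 392 counts per animal, so its fold change does not rest on a value near 0.

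*SHMT2*, the mitochondrial serine hydroxymethyltransferase that stands first in this route, fell. Its values were 279, 315 and 393 CPM (lowest, median and highest) in controls and 166, 205 and 233 CPM in NASH. The groups did not overlap, and NASH 41 was lowest while NASH 9 was highest within NASH. Control livers had 1.61-fold more *SHMT2* than NASH livers, with means of 323 ± 45.04 and 201 ± 24.2 CPM (SD, n = 6 each). The log2 fold change was -0.68 (SE 0.11, adjusted p = 0.000149) and -0.21 (adjusted p = 0.0759) with library size alone. The 3 measured mitochondrial enzymes therefore did not move as a group under TMM scaling, where *MTHFD1L* rose and *SHMT2* fell. *MTHFD2* does not count towards this, because its direction was fixed by the filter on low counts. Because *SHMT2* has many more counts than the others, the summed CPM of the 3 genes was lower in NASH (226 to 280.1, mean 250.1 ± 22.7) than in controls (298 to 402, mean 339 ± 42.0) with TMM factors. This sum depended on the scaling, since with library size alone it was 265 to 331 (mean 295 ± 28.2) in NASH and 261 to 336 (mean 287 ± 29.7) in controls, with overlap and the opposite sign.

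Both cytosolic folate enzymes fell. *MTHFD1*, the trifunctional enzyme of the cytosol, ran from 751 over 882 to 990.3 CPM in controls and from 469.5 over 558 to 651 CPM in NASH. No NASH animal reached the lowest control, Control 56. Means were 876 ± 86.1 and 552 ± 66.5 CPM (SD, n = 6 each), 1.59-fold higher in controls. On the log2 scale *MTHFD1* fell by 0.67 (SE 0.10, adjusted p = 8.23e-05), with -0.19 (adjusted p = 0.0703) for library size alone.

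*SHMT1*, the cytosolic serine hydroxymethyltransferase, showed the largest fall of the 8 genes in edgeR with all animals. Control livers ran from 447 over 535 to 675 CPM and NASH livers from 186 over 231 to 272 CPM, without overlap. The highest NASH animal, NASH 65, was well below the lowest control, Control 56. Means were 546 ± 92.6 and 233 ± 31.5 CPM (SD, n = 6 each), 2.35-fold higher in controls. The log2 fold change was -1.23 (SE 0.13, adjusted p = 4.7e-06), and *SHMT1* was the only lower gene of the 8 that kept its call with library size alone (-0.76, adjusted p = 6.6e-05). The summed CPM of the 2 cytosolic genes went from 1421 ± 157 (1199 to 1665) in controls to 784 ± 89.5 (656 to 889) in NASH, and with library size alone from 1205 ± 131 (1049 to 1413) to 923 ± 87.3 (777 to 1031).

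The 3 enzymes of serine synthesis from glucose were lower in NASH as well. *PHGDH*, the dehydrogenase of the first step, had 251, 307 and 359 CPM (lowest, median and highest) in controls and 166, 183 and 238 CPM in NASH. The groups did not overlap, although NASH 65, at 238 CPM, came close to Control 5, at 251 CPM, and stood apart from the other NASH animals, which reached 190.2 CPM at most. Means were 309 ± 37.9 and 188 ± 26.3 CPM (SD, n = 6 each), 1.64-fold higher in controls. The log2 fold change was -0.72 (SE 0.11, adjusted p = 0.000102), and -0.25 (adjusted p = 0.0573) with library size alone.

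*PSAT1*, the transaminase of the second step, had 272, 336 and 386 CPM in controls and 175, 207 and 253 CPM in NASH. Here too every NASH animal was below every control, with NASH 20 the nearest to the controls. Means were 327 ± 39.9 and 209.7 ± 25.8 CPM (SD, n = 6 each), 1.56-fold higher in controls. In edgeR the log2 fold change was -0.64 (SE 0.10, adjusted p = 0.000169), and -0.17 (adjusted p = 0.18) with library size alone.

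*PSPH*, the phosphatase of the last step, was the one gene whose groups overlapped. Controls had 26.9 CPM in Control 56, 66.5 in Control 10, 76.4 in Control 5, 85.5 in Control 32, 98.6 in Control 45 and 114 in Control 31. NASH livers lay in a narrow band, with a lowest value of 37.5, a median of 41.8 and a highest value of 48.3 CPM. All NASH animals were below 5 of the controls and above Control 56. Means were 78.0 ± 30.2 and 43.0 ± 4.37 CPM (SD, n = 6 each). The log2 fold change was -0.86 (SE 0.25, adjusted p = 0.0122), it was -1.04 (adjusted p = 5e-05) without Control 56, and with library size alone it was -0.38 (adjusted p = 0.195). The summed CPM of the 3 serine synthesis genes went from 714 ± 79.1 (599 to 813) in controls to 441 ± 28.4 (399 to 481) in NASH, and with library size alone from 607 ± 79.8 (482 to 712) to 519.5 ± 32.6 (473 to 561.5), with overlap.

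The falls of *SHMT2*, *MTHFD1*, *PHGDH*, *PSAT1* and *PSPH* (-0.64 to -0.86) were larger than the difference between the scalings. They kept their sign but lost their call with library size alone. With library size alone, 71.6% of all symbols were called and the median log2 fold change of all symbols moved to 0.48. Relative to that median, the 8 genes lay at 7.39 (*MTHFD2*), 1.18 (*MTHFD1L*), -0.68 (*SHMT2*), -0.67 (*MTHFD1*), -1.23 (*SHMT1*), -0.72 (*PHGDH*), -0.64 (*PSAT1*) and -0.86 (*PSPH*). Since another scaling moves all genes by about the same amount, these values repeat those with TMM factors and are no separate evidence. Tested against a log2 fold change of 1 in size instead of against 0, 1 of the 8 was called, *MTHFD2*, whereas *SHMT1* (adjusted p = 0.109) and *MTHFD1L* (adjusted p = 0.284) were not.

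**Figure D2:**
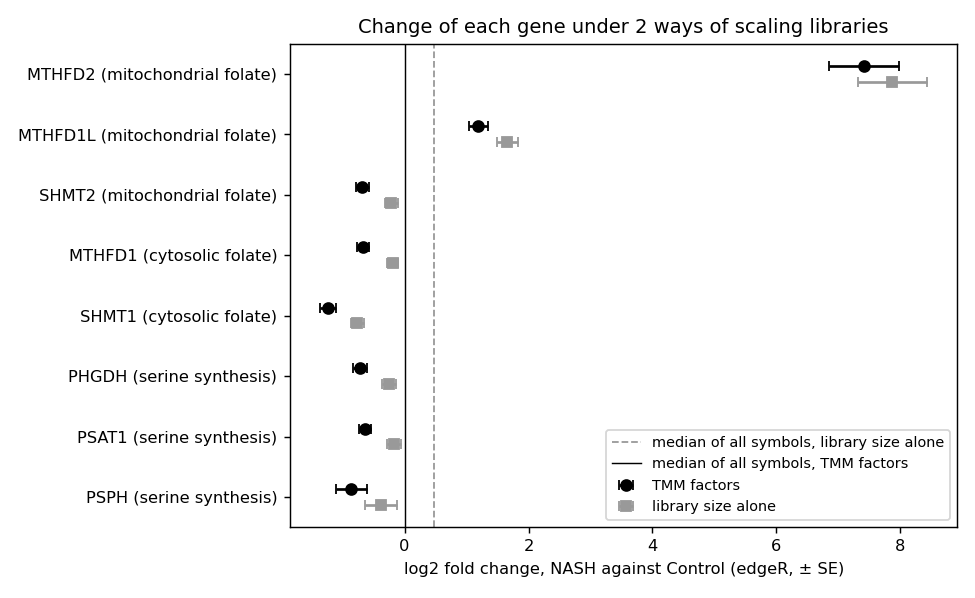
Log2 fold change, NASH over Control, of each gene on the horizontal axis, from edgeR with TMM scaling (black circles) and with library size alone (grey squares), bars of 1 SE, and vertical lines at the median of all symbols (solid, TMM; dashed, library size alone). MTHFD2 and MTHFD1L lie right of 0 and the other genes left of 0 under both scalings, with SHMT2, MTHFD1, PHGDH and PSAT1 within 0.25 of 0 when library size alone is used.

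The question of whether mitochondrial and cytosolic enzymes shifted against each other was addressed with ratios of counts within each animal, which do not depend on how libraries are scaled. Such a ratio shows unequal change and not which gene changed, and its level depends on transcript length. The log2 ratio of *SHMT2* to *SHMT1* was -0.75 ± 0.27 in controls (-1.20 to -0.44) and -0.21 ± 0.20 in NASH (-0.51 to 0.01). It was thus higher in NASH by 0.54 (SE 0.14), 1.46-fold, with a slight overlap between the groups (two-sided exact permutation p = 0.00433, adjusted over 3 ratios 0.00433). With TMM factors both hydroxymethyltransferases had fallen, the cytosolic one by more. The fall of *SHMT2* was not called with library size alone (-0.21, edgeR adjusted p = 0.0759).

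The log2 ratio of *MTHFD1L* to *MTHFD1* was -5.86 ± 0.46 in controls (-6.67 to -5.31) and -3.97 ± 0.27 in NASH (-4.25 to -3.59). All 6 NASH animals were above all controls, and the difference of 1.88 (SE 0.22) corresponded to a 3.69-fold shift towards the mitochondrial gene. The exact permutation p was 0.00216, the smallest that 6 against 6 animals can give. Its adjusted value over the 3 ratios, 0.00325, is lowered by the ratio of *MTHFD2* to *MTHFD1*, which is only a description. The log2 ratio of *MTHFD2* to *MTHFD1* was -14.3 ± 1.51 in controls (-15.26 to -11.31) and -5.36 ± 0.49 in NASH (-5.74 to -4.48). Its groups did not overlap either, which is a description because *MTHFD2* is in the table through its NASH counts alone. The difference of 8.94 (SE 0.65) is set in part by the 0.5 added to counts of 0 and was 8.10 with 1 added. In both ratios that do not hold *MTHFD2* the mitochondrial gene gained on its cytosolic counterpart, and without NASH 41 and NASH 65 these differences were 0.57 (*SHMT2* to *SHMT1*) and 1.85 (*MTHFD1L* to *MTHFD1*).

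**Figure D3:**
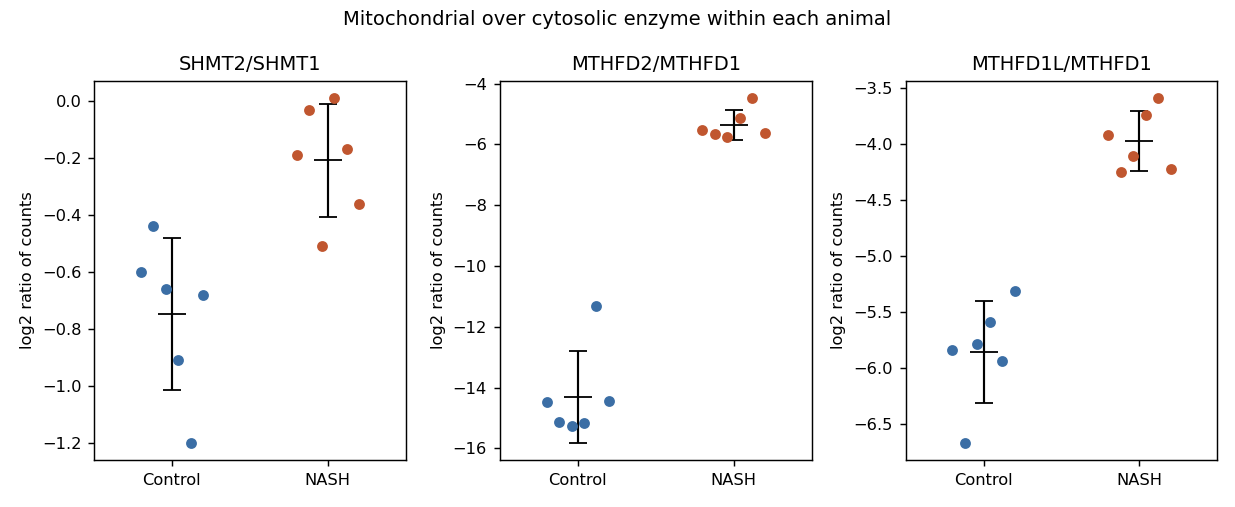
Log2 ratio of counts of a mitochondrial gene to its cytosolic counterpart in each animal, with each point 1 animal and bars at the group means with the SD over 6 animals. The groups are separate for MTHFD2/MTHFD1 and MTHFD1L/MTHFD1 and overlap slightly for SHMT2/SHMT1, where the highest control is at -0.44 and the lowest NASH animal at -0.51.

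Spread between animals was modest for most of these genes. The coefficient of variation of CPM was 9.83% to 16.96% in controls and 12.0% to 14.0% in NASH for *SHMT2*, *MTHFD1*, *SHMT1*, *PHGDH* and *PSAT1*. It was 22.5% in controls and 11.4% in NASH for *MTHFD1L*. For *PSPH* it was 38.7% in controls, where Control 56 was far below the rest, and 10.2% in NASH. For *MTHFD2* in NASH it was 29.6%. NASH 41 had the highest *MTHFD2* and the lowest *SHMT2*, *MTHFD1*, *SHMT1* and *PSAT1* of the NASH animals. Control 56 had the lowest *SHMT2*, *MTHFD1*, *SHMT1* and *PSPH* of the controls.

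Genes with the most similar profile were sought among all symbols by the root mean square distance of the deposited log2 values over the 12 animals, each gene centred on its own mean. For *MTHFD2* they were *TBC1D9* (distance 0.12), *PMP22* (0.14) and *ABCA1* (0.19), with log2 fold changes of 3.17, 3.74 and 3.59. These are smaller than that of *MTHFD2* because the deposited log2 values of a gene with few counts are compressed. For *MTHFD1L* the nearest were *LPCAT4* (0.091), *SKIL* (0.11) and *HK2* (0.11), and for *SHMT1* they were *SUGCT* (0.085), *DECR1* (0.085) and *CLPX* (0.09). Among the nearest to *SHMT2* were *SEC22A* (0.072) and *HSCB* (0.084). *MTHFD1* was nearest to *NFS1* and *AL109827.1*, which share a count row (0.053), and to *ACAA2* (0.055). *PHGDH* was nearest to *TMEM86B*, *HSPBP1* and *PPP6R1*, 3 symbols of a single count row (0.044), *PSAT1* to *VKORC1* (0.057), *GPR137* (0.068) and *GLRX2* (0.069), and *PSPH* to *NAAA* (0.17), *FMO4* (0.18) and *SLC27A4* (0.19).

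Counts in the lists of genes that follow are read against all symbols, of which 27.9% were higher and 26.0% lower with TMM factors, and 63.9% and 7.66% with library size alone. A gene with fewer than 200 counts over all controls needed its NASH counts to enter the table. The filter thus favoured a higher value in NASH for it, without fixing the direction in every case. Such genes are named as admitted by NASH counts and given without a p-value. Other enzymes of folate metabolism were split as well. Of 10 measured, 4 rose and 6 fell (median -0.58 on the log2 scale), against 4 and 3 with library size alone. *ALDH1L1*, the cytosolic formyl-tetrahydrofolate dehydrogenase that oxidises one-carbon units to CO2, fell from 1267 ± 80.5 to 415 ± 59.8 CPM (SD, n = 6 each; log2 fold change -1.61, SE 0.10, adjusted p = 1.49e-07). Its mitochondrial relative *ALDH1L2* rose from 39.7 ± 12.7 to 86.5 ± 13.8 CPM without overlap of the groups (log2 fold change 1.12, SE 0.20, adjusted p = 0.000521). *FTCD*, which feeds one-carbon units from histidine breakdown into the folate pool, fell from 704 to 305 CPM (-1.21, adjusted p = 2.7e-05). *TYMS*, the thymidylate synthase, admitted by NASH counts, had 0.609 ± 0.253 CPM in controls and 2.97 ± 1.49 in NASH (2.28, SE 0.36). *MTFMT*, which formylates the mitochondrial initiator tRNA, fell (-0.56), but it was -0.09 (adjusted p = 0.358) with library size alone. *MTHFS* (-1.09) was lower too, but it shares its count row with another symbol.

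Of 5 genes of folate transport and retention, 1 was higher and 3 were lower, with 1 higher and 1 lower under library size alone. *SLC25A32*, the mitochondrial folate carrier, went from 91.7 ± 7.52 to 54.5 ± 4.69 CPM (log2 fold change -0.75, adjusted p = 4.63e-06) on a count row shared with another symbol. The proton-coupled folate transporter *SLC46A1* (-0.64, adjusted p = 0.00341; -0.17, adjusted p = 0.325 with library size alone) and *GGH*, which removes the glutamate tail that retains folate in cells (-0.44, adjusted p = 0.0103; -0.37, adjusted p = 0.0506 without NASH 41 and NASH 65) fell, the latter with a sign that turned to 0.04 under library size alone. The 1 higher gene, the folate receptor *FOLR1*, was admitted by NASH counts (0.463 CPM in controls and 1.80 in NASH; 1.96).

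The mitochondrial routes that draw one-carbon units from glycine and choline were lower: of 6 genes, none rose and 5 fell, with a median of -0.80, and 3 fell with library size alone. *SARDH* and *DMGDH*, which demethylate sarcosine and dimethylglycine, went from 459.8 to 186 CPM (-1.31, adjusted p = 6.34e-06) and from 632 to 304 CPM (-1.06). Of the glycine cleavage system, *GLDC* fell by 0.47 on the log2 scale (adjusted p = 0.0397; 0.01 with library size alone, and not called without any 1 of Control 5, 10, 32 and 45 and NASH 2, 11, 20 and 41), *GCSH* (-0.95, adjusted p = 1.32e-06) and *AMT* (-0.65; -0.19, adjusted p = 0.101 with library size alone) fell on shared count rows, and *DLD* had -0.28 (adjusted p = 0.0863; called without Control 56, at -0.34). The 6 genes of purine synthesis, a main use of cytosolic formate, moved little, with a median of 0.03. *PFAS* (0.24, adjusted p = 0.0254) and *ATIC* (0.21, adjusted p = 0.00803) were higher, *PFAS* not without NASH 41 or NASH 65, and the other 4, among them *PPAT* (-0.08, adjusted p = 0.532; 0.40 with library size alone), were not called; with library size alone all 6 were higher.

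Of 11 further enzymes that use or interconvert serine and glycine, 1 was higher and 6 were lower, with a median of -0.85; with library size alone 5 were higher and 6 lower. The serine dehydratase-like gene *SDSL* fell from 174 to 42.6 CPM (-2.03, adjusted p = 1.83e-05) and the glycine methyltransferase *GNMT* from 599.7 to 267 CPM (-1.17, adjusted p = 1.31e-05). *AGXT*, which transaminates glyoxylate to glycine, fell by 1.0 on the log2 scale (adjusted p = 4.38e-06), and *CBS* fell on a shared count row (-0.85). The serine dehydratase *SDS* had 80.4 ± 60.2 CPM in controls and 8.88 ± 13.7 in NASH, with overlapping groups (-3.17, adjusted p = 0.0122; -3.00 and not called without NASH 41 and NASH 65). NASH 9 had 36.3 CPM and the other NASH animals 0.238 to 7.18, and without NASH 9 the log2 fold change of *SDS* was -4.56. *SPTLC2*, a subunit of the enzyme that puts serine into sphingolipids, was the 1 gene that rose, from 6.13 to 15.1 CPM (1.3, adjusted p = 1.42e-06).

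Transporters of serine and glycine moved in both directions. *SLC38A1*, a carrier of small neutral amino acids, rose from 9.44 to 64.0 CPM (2.76, adjusted p = 2.98e-07). Of 8 transporters 5 were called higher and 2 lower, but 4 of the 5 were admitted by NASH counts, and the median log2 fold change was 2.41 with them and -0.17 over the other 4 transporters. The 4 admitted by NASH counts were *SLC1A4*, a plasma membrane carrier of serine and alanine (0.741 ± 0.257 CPM in controls and 8.62 ± 2.29 in NASH; 3.52, SE 0.25), the mitochondrial serine carrier *SFXN3* (1.39 and 13.8 CPM; 3.30), the neutral amino acid exchanger *SLC1A5* (2.05) and the glycine transporter *SLC6A9* (3.45). *SFXN1*, the mitochondrial serine importer, was lower (-0.43, adjusted p = 0.00069), but this turned to 0.04 with library size alone, and *SFXN2* fell by 1.15 on the log2 scale (adjusted p = 0.000624). *SLC6A9* had 9.36 CPM in NASH 41 and 6.06 in NASH 65 against 1.11 to 1.5 in the other NASH animals, and without these 2 animals its log2 fold change was 2.03.

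ATF4, a transcription factor of the amino acid response, is known to induce *MTHFD2*, *SHMT2* and the serine synthesis genes in cultured cells. Its own transcript was at 275 ± 28.2 CPM in controls and 257 ± 28.8 in NASH (SD, n = 6 each), with a log2 fold change of -0.10 (adjusted p = 0.39) that turned to 0.38 (adjusted p = 0.00134) with library size alone. Of 29 genes of an ATF4 and amino acid response list, 13 were higher, 5 lower and 11 not called, with a median of 0.26, against 21 higher and 2 lower with library size alone, where the shares are near those of all symbols. Of the 13, 3 were admitted by NASH counts. The glutathione-degrading enzyme *CHAC1* had 0 counts in 5 controls, 4 counts in Control 32 and 45 to 119 counts in NASH (5.80, SE 0.59). It was admitted by NASH counts, and its fitted value rests on the 4 counts of Control 32, being 8.83 without that animal, which is no bound. *NUPR1* rose from 8.41 to 38.4 CPM (2.19), *SLC7A1* by 1.35 and *WARS1* by 0.95 on the log2 scale, while *CTH*, which makes cysteine from cystathionine, fell from 592 to 217 CPM (-1.45, adjusted p = 1.79e-06) and *NARS1* fell by 0.49 (-0.02, adjusted p = 0.884 with library size alone). The asparagine synthetase *ASNS* was slightly higher (0.42, adjusted p = 0.0217), and it was 0.33 and not called without NASH 41 alone and 0.24 (adjusted p = 0.137) without NASH 41 and NASH 65. The genes of the list moved in both directions, as the 8 genes themselves did. Whether the activity of ATF4 differed between the groups was not tested.

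**Figure D4:**
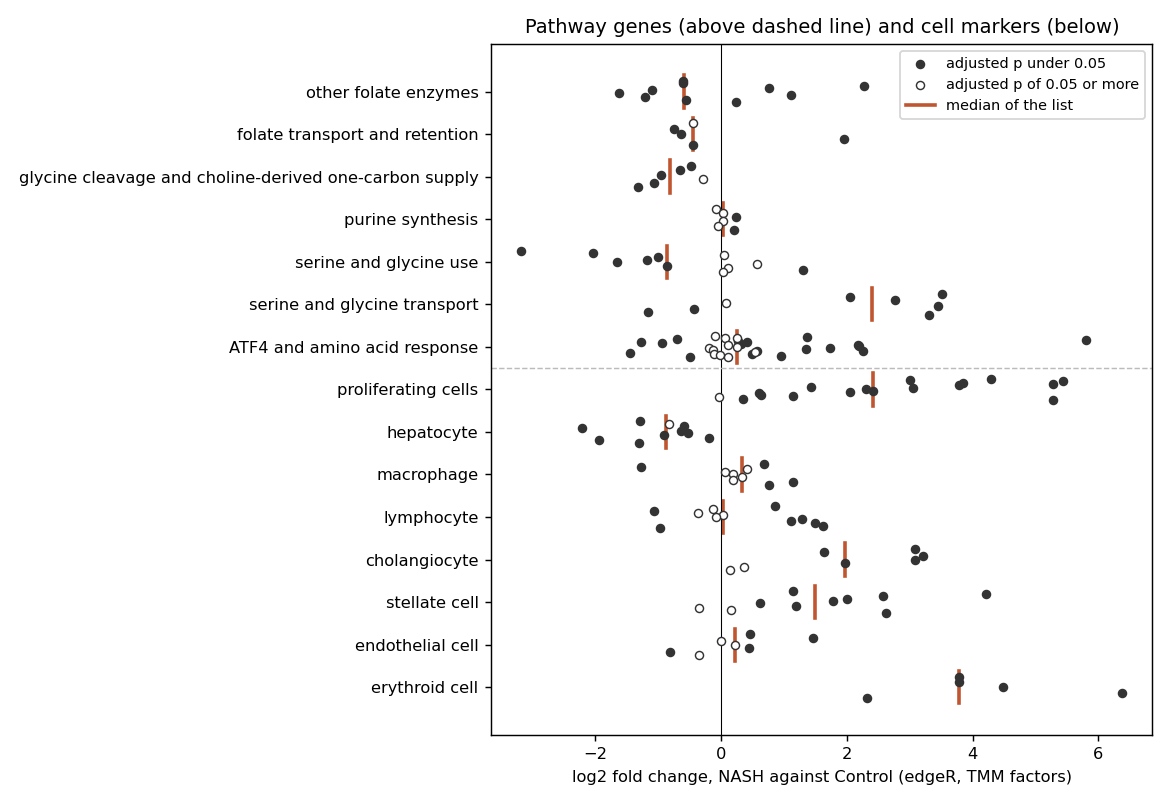
Log2 fold change, NASH over Control, of every measured gene of the pathway and cell type lists, 1 row per list and 1 point per gene, with filled points past an adjusted p of 0.05 in edgeR and a bar at the median of the list. Medians run from -0.87 for hepatocyte markers to 3.79 for the 5 erythroid symbols, and the medians of the folate enzyme, folate transport, glycine cleavage and serine use lists lie left of 0.

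Several cell type lists moved with these genes. Hepatocyte markers were present in all livers at 111205 to 141353 summed CPM in controls and 45536 to 73356 in NASH; 9 of 10 fell and none rose, with a median of -0.87, beside -0.68 for the 8 genes. With library size alone 5 of these markers fell and 1 rose. *TTR* had the lowest value (-2.20) and *ASGR1* the highest (-0.18, adjusted p = 0.0453; 0.29 with library size alone, and not called without any 1 of Control 10, 31, 32 and 45 and NASH 2, 9, 20 and 41). Of 17 markers of proliferating cells 16 were higher, 7 of them admitted by NASH counts, with a median of 2.42 (1.28 over the other 10) and summed CPM of 169 to 212 in controls and 254 to 499 in NASH, where NASH 20 was highest; *CCNB2* had the highest value (5.44, and 4.83 to 6.31 with single animals left out, 4 controls being at 0 counts) and *PCNA* the lowest (-0.03, adjusted p = 0.785; 0.44, adjusted p = 0.00125 with library size alone). NASH 20 had the second highest *MTHFD2*, at 15.7 CPM. The highest *MTHFD2* was in NASH 41 (21.1 CPM, with a marker sum of 309 CPM). The lowest within NASH was in NASH 2 (10.4 CPM, with a marker sum of 265 CPM). A link between *MTHFD2* and these markers was not tested.

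Stellate cell markers rose in 8 of 10 (702 to 860 summed CPM in controls, 1594 to 3237 in NASH; *COL1A1* 4.21, *DES* -0.35 with adjusted p = 0.237) and cholangiocyte markers in 5 of 7 (327 to 394 and 521 to 978; *EPCAM* 3.22, *ANXA4* 0.14 with adjusted p = 0.531, and 0.63 with adjusted p = 0.0092 with library size alone). Of 9 macrophage markers 3 rose (33.3%, near the 27.9% of all symbols), among them *MSR1* (1.15; 0.82 and not called without NASH 41 and NASH 65), and 1, *MARCO*, fell (-1.27), with summed CPM of 421 to 728 and 698 to 980.04. Lymphocyte markers had summed CPM of 104 to 151 and 97.8 to 133, with 5 of 11 higher, 3 of them admitted by NASH counts, *CD79B* (1.62) with the highest value, and 2 lower, with *CD3E* lowest (-1.06). Endothelial markers had 503 to 690.2 and 569.5 to 829.4, with 3 of 7 higher, led by *VWF* (1.46), and 1 lower, *LYVE1* (-0.81). The erythroid symbols, 5 on 4 count rows because *HBA1* and *HBA2* share a row, were all higher, 3 of them (*ALAS2*, *SLC4A1* and *KLF1*) admitted by NASH counts, from *KLF1* (2.33; 0.64 and not called without NASH 41 and NASH 65) to *SLC4A1* (6.38, and 5.64 to 7.36 with single animals left out, 3 controls being at 0 counts), with summed CPM (each count row taken once) of 57.4 to 172 in controls, 427 to 726 in 4 NASH animals, 3280.2 in NASH 65 and 4531 in NASH 41. The part of these cell types in the values of the folate and serine genes was not tested. Without NASH 41 and NASH 65, which had the highest erythroid sums, all 8 genes were called in the same direction, with *MTHFD2* at 7.26, *SHMT1* at -1.23 and *PSPH* at -0.86 (adjusted p = 0.0386).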

How the data were processed

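Liver mRNA of 12 guinea pigs was sequenced with a stranded kit and single reads. Per the submitters' processing notes and the study's methods, the authors trimmed reads with Trimmomatic 0.38.0, mapped them with HISAT2 2.1.0 to Cavpor3.0, ignored multimapped reads and assembled and quantified with StringTie 1.3.6. The authors deposited raw counts per locus, and log2 values to which these had been converted by rlog (DESeq2). The count table has 39061 rows without symbols, so rlog was computed anew for its 18422 rows with at least 200 counts and matched to the deposited values, which placed all 11896 symbols on 11031 rows (78.2% to 79.9% of counts per animal). 1515 symbols share a row.

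Counts were analysed with edgeR 4.0.16 in R 4.3.3 (TMM factors, whole-table totals, robust glmQLFit, glmQLFTest). The SE of a log2 fold change is its size over the square root of F. Ratios had 0.5 added to each count and were tested over all 924 splits of the animals (Python 3.11.15, scipy 1.17.1). The alternatives were other scalings and filters, DESeq2 1.42.0, limma 3.58.1, other thresholds and leaving out animals. The genes and lists were chosen with earlier results of these data known. Named genes are the measured pathway members, the highest and lowest gene of each list, up to 4 more of a pathway list by adjusted p-value, and the 3 nearest profiles; some genes that the rule covers are not reported here. *ALDH1L2*, *SLC6A9*, *ATF4* and *ASNS* were named after their values were seen. Promoter and protein sequences and genome positions were not used here.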

Additional observations from a re-analysis of the deposited data

Results flagged for a closer look

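Within each group of 6 animals, values of the 8 genes and 3 ratios were examined for an animal whose gap to its nearest neighbour exceeded 0.625 of the range of its group. This was met by 3 of 22 groups of values, where chance marks about 1 in 20 groups, but 2 of the 3 rest on the same 9 counts of Control 45, and a single value above 0 among values of 0 always meets the criterion. *MTHFD2* was at 0.37 CPM in Control 45 and at 0 in the other controls. In the same animal, the log2 ratio of *MTHFD2* to *MTHFD1* was -11.3, with the next control at -14.4. *PHGDH* was at 238 CPM in NASH 65, with the next NASH animal at 190.2 CPM.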

How the results depend on the processing

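The 8 calls and their directions at 0.05 held with RLE and upper-quartile scaling, DESeq2, limma, other filters and each animal left out, except where named here. At a threshold of 0.01 *PSPH* was not called. Library size alone called 3 of the 8 genes (1 lower); it also gave 3 lower other folate enzymes, 1 lower folate transport gene, 3 lower glycine and choline genes, 6 higher purine genes, 5 higher serine use genes, 1 lower transporter, 21 higher and 2 lower ATF4 genes, 1 higher and 5 lower hepatocyte markers and 7 higher macrophage markers. It turned *ASGR1* to 0.29, *ATF4* to 0.38, *DES* to 0.14, *DLD* to 0.20, *GGH* to 0.04, *GLDC* to 0.01, *PCNA* to 0.44, *PPAT* to 0.40 and *SFXN1* to 0.04. Over all symbols it gave 7603 higher and 911 lower against 3318 and 3093. The test against a log2 fold change of 1 called 1 of the 8 genes (1 higher, 0 lower), and 1100 symbols against 6411. With 1 animal left out, higher purine genes were 1 to 2 (1 without NASH 41 or NASH 65), lower ATF4 genes 3 to 5 (3 without Control 10, Control 32 or NASH 2) and lower endothelial markers 1 to 2 (2 without Control 5). With single animals left out *ANXA4* (-0.05 to 0.22) turned without NASH 20, and *PCNA* (-0.08 to 0.02) without Control 45 and without NASH 9. Leaving out NASH 41 and NASH 65 together, chosen after seeing the data, left 1 higher purine gene and ended the calls of *ASGR1*, *ASNS*, *GGH*, *KLF1*, *MSR1*, *PFAS* and *SDS*. The cause of these shifts was not tested. Over 65 single genes and 1039 values under alternatives, 46 lost and 5 gained a call. No paired analysis was possible because the groups share no animal number. The planned comparison of promoter motifs and proteins was not run, and ratios with *MTHFD2L* could not be formed. Depth limits *MTHFD2* and *CHAC1* (0 counts in 5 controls each), *CCNB2* (in 4) and *SLC4A1* (in 3).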
